A study of Mus musculus with 18 samples.

Results

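The genes Id1, Id2, Id3, Hes1, Bhlhe40 and Bhlhe41 encode helix-loop-helix proteins that repress transcription, and they were followed here in macrophages during the first 30 min of a response to LPS, with or without IL-10. All probe sets whose platform annotation gives one of these 6 symbols were taken, whatever their signal, which gave 9 of the 45101 probe sets on the array. Id2 had 3 probe sets, Bhlhe41 had 2 and the other 4 genes had 1 each. Of the 9 probe sets, 8 passed the filter on low signal, which asked for a value no lower than the median of the array on 3 or more arrays, and were tested, and the dimmer Bhlhe41 probe set was not.

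The macrophages were grown for 7 days from bone marrow of IL-10-/- mice in medium with CSF-1 from L-cell conditioned medium, so every group lacked a working Il10 gene. The submitters put mature macrophages at more than 95 percent of the cells. The cells were then treated without CSF-1 for 10, 20 or 30 min, either with LPS plus IL-10 or with LPS and no IL-10. LPS was used at 100 ng/ml in all groups, and IL-10 at 10 ng/ml. Each of the 6 groups had 3 Affymetrix arrays, 1 from each of 3 complete experiments performed in sequence on age- and sex-matched mice. These are called experiments 1, 2 and 3, after the replicate number. Untreated and wild-type cells were not analysed here, so each value compares 2 treatments or 2 times, and the number of animals behind an experiment is not stated in the labels.

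A helix-loop-helix protein acts as a dimer, and in most family members a basic region beside the helices binds the E-box sequence CANNTG in DNA. The Id proteins lack this basic region. They pair with E proteins such as Tcf3, Tcf4 and Tcf12 and keep them off DNA, and their genes are well-known targets of BMP and SMAD signalling and of serum. Hes1 binds DNA and recruits Groucho/TLE co-repressors, its gene is a classical Notch target, and in mouse macrophages it restrains some inflammatory genes. Bhlhe40 and Bhlhe41 bind E-boxes and repress clock genes, and in mouse T cells and myeloid cells Bhlhe40 represses Il10.

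The promoters of Id2 and Id3 are shown because both genes had higher signals at 30 than at 10 min in every experiment, although Id3 did not pass the test described below. Id1, which passed with the experiment as a block, had no entry in the promoter table used. Each window, from RefSeq on build GRCm38.p6, holds 250 bases before and 50 bases after the annotated start and is written 5′ to 3′ on the gene's own strand. The Id2 window is chr12:25096043-25096342 on the minus strand, and the Id3 window is chr4:136143572-136143871 on the plus strand. Capitals mark matches, on either strand, to the E-box CANNTG, to GGCGCC (a BMP-responsive SMAD motif) and to CCAAT, and no 2 of these matches overlap.
Id2: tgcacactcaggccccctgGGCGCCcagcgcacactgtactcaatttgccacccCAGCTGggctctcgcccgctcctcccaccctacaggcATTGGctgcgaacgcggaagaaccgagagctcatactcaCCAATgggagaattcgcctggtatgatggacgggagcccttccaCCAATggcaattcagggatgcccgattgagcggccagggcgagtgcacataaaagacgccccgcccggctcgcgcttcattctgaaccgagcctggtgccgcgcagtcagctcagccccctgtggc
Id3: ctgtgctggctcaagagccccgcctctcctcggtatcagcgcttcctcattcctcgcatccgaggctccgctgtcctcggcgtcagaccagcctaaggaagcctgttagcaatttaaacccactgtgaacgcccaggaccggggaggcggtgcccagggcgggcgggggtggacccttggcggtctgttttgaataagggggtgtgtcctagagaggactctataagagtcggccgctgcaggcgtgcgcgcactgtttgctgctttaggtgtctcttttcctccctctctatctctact
The Id2 window held 1 E-box, 1 GGCGCC and 3 CCAAT matches, and the Id3 window held none of the 3 motifs. Among 32817 promoter windows of this length, 72.3 percent held an E-box, 11.9 percent GGCGCC and 37.4 percent CCAAT. The shorter core of the SMAD-binding element, GTCT, is not marked by capitals. It had 1 match in the Id2 window and 3 in the Id3 window, and 88.0 percent of the windows held it. Neither window held the STAT motif TTCNNNGAA, which 8.29 percent of the windows held, or the class B E-box CACGTG, which 7.15 percent held. These matches describe letters only and are not evidence of binding.

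The values are linear signals that arrived scaled to one trimmed mean on every array, with array medians of 75.8 to 121.2, and precision is limited by having 3 arrays in a group. At 20 min, the LPS arrays from experiments 2 and 3 differed from the rest, with lower quartiles of signal of 38.7 and 34.1, against 21.9 to 31.1 on the other 16. The Il10 probe set gave 602 to 3209 on the 18 arrays. Where its probes lie with respect to the deleted part is unknown here, so it does not check the genotype. Of the macrophage markers 9 of 10 were on the array and all 9 reached the median of the array on all 18 arrays (Csf1r from 19736 to 43021). Of the 5 T lymphocyte markers measured, Cd3g, Cd4 and Thy1 reached it on 0 arrays, Cd3e on 5 and Cd8a on 14. The granulocyte markers S100a8 (2757 to 7701), S100a9, Ngp, Camp, Ltf and Mpo reached it on all 18 arrays, and Elane on 14. Of the stromal markers, Col1a1, Col1a2 and Col3a1 reached it on all 18 arrays, Pdgfrb on 16, Dcn on 10 and Pdgfra on 2. The stated purity was not tested.

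Id1, Id2 and Id3 had higher signals at 30 than at 10 min under both treatments, and the differences between experiments were larger than those between times or treatments. Averaged over LPS plus IL-10 and LPS, the log2(signal + 16) difference between 30 and 10 min was 0.85 for Id1, 0.80, 0.58 and 0.42 for the Id2 probe sets from the dimmest to the brightest, and 0.58 for Id3. With the experiment as a block, Id1 rose (SE 0.17, limma adjusted p = 0.0324), and so did the dimmest (SE 0.12, adjusted p = 0.00249) and the second-brightest (SE 0.12, adjusted p = 0.048) probe set of Id2. After quantile normalisation, the blocked adjusted p was 0.0555 for Id1 and 0.0508 for the second-brightest Id2 probe set, and that probe set also missed the threshold with a pseudocount of 1 (0.0565) or no filter (0.0531). Id3 (SE 0.13, adjusted p = 0.0695) and the brightest Id2 probe set (SE 0.10, adjusted p = 0.133) did not pass with the block. In the fit without a block, which counts the differences between experiments as spread, 0 of the 8 passed (adjusted p = 1.00 for each), and the dimmest Id2 probe set alone had an unadjusted p under 0.05 (0.0407).

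These 3 of 8 probe sets belonged to 2 of the 6 genes, and 0.35 percent of the 27110 tested probe sets rose in that blocked comparison (0.0553 percent without the block), while 0.435 percent changed in either direction (0.059 percent without the block). The median over the 8 was 0.50, against -0.03 over all tested probe sets, and 7 of the 8 were higher at 30 min, against 43.3 percent of all. The 6 genes were chosen with earlier results of these data known, so such shares are no independent evidence, and 3 of the 8 read Id2. No probe set of the 6 genes passed with the block when experiment 1 or experiment 2 was left out. Calls over the whole array also fell, from 118 to 43 without experiment 1 and to 36 without experiment 2, so this loss was not confined to these genes. Without experiment 3 there were 121 calls over the whole array. Without experiment 3 Id1 (1.09, adjusted p = 0.00073) and the dimmest Id2 probe set (0.82, adjusted p = 0.00925) passed and the second-brightest did not (0.43, adjusted p = 0.168).

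**Figure D1:**
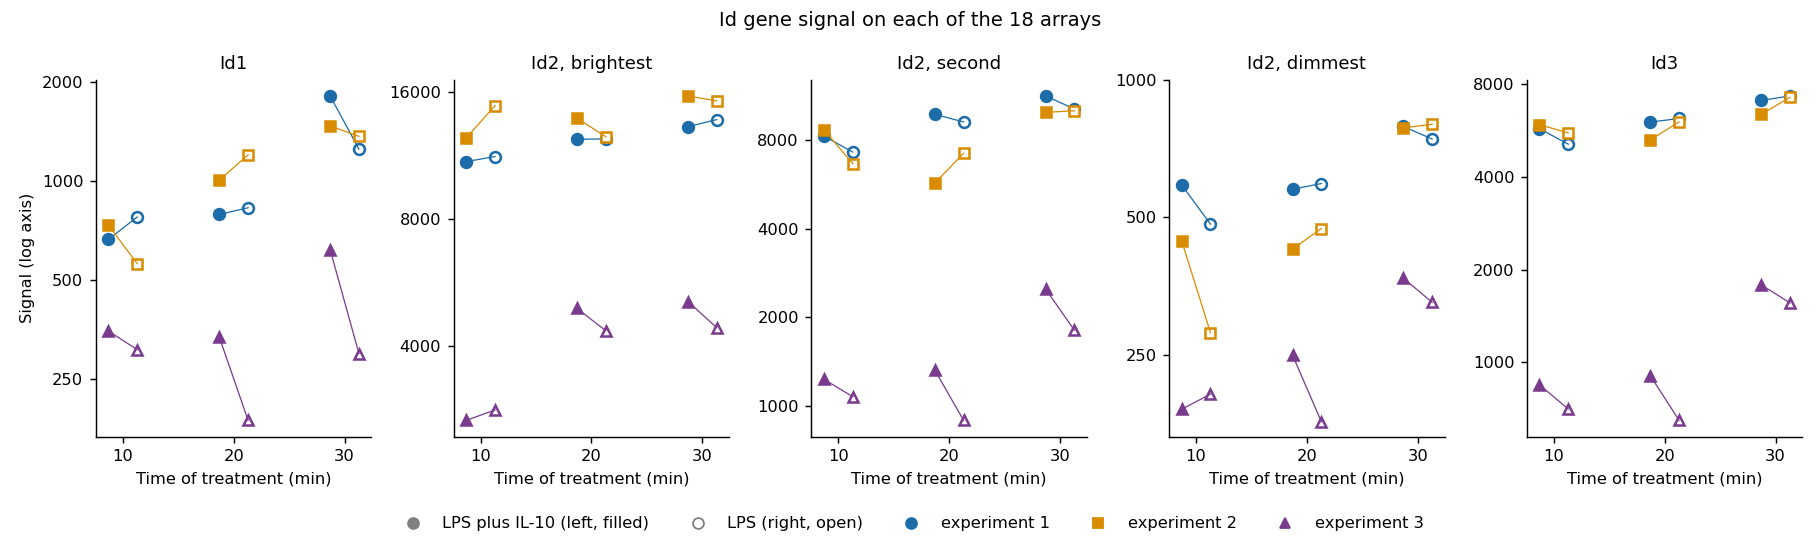
Signal (log axis) of the Id1, Id2 and Id3 probe sets on each of the 18 arrays, against time of treatment in min. Filled symbols on the left are LPS plus IL-10, open symbols on the right are LPS, colour and shape give the experiment, and lines join the 2 arrays of an experiment at a time; the experiment 3 array is the lowest of its group in every panel, and the 30 min arrays of the second and dimmest Id2 panels and of Id3 lie above the earlier ones of their own experiment.

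Id1 (probe set 1425895_a_at), an Id protein prominent in endothelial and progenitor cells, had signals of 663, 733 and 349 with LPS plus IL-10 and 776, 559 and 306 with LPS at 10 min, in experiments 1, 2 and 3. At 20 min it had 790, 1004 and 335 with LPS plus IL-10 and 828, 1200 and 186 with LPS. At 30 min the signals were 1813, 1470 and 617 with LPS plus IL-10 and 1249, 1366 and 298 with LPS. Both 30 min arrays lay above the 4 earlier arrays in experiments 1 and 2, but in experiment 3 the LPS array at 30 min lay below both 10 min arrays.

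By group, Id1 was highest with LPS plus IL-10 at 30 min, at 1300 ± 616 (mean signal ± SD, n = 3), followed by LPS at 30 min with 971 ± 586 and LPS at 20 min with 738 ± 513. LPS plus IL-10 at 20 min (710 ± 342), LPS plus IL-10 at 10 min (582 ± 205) and LPS at 10 min (547 ± 235) came next. Every neighbouring pair in this order differed by less than its SDs, which include the differences between experiments that the block takes out. The change from 10 to 30 min was 1.81-fold on the log2(signal + 16) scale, with differences of 1.05, 1.13 and 0.38 in experiments 1, 2 and 3.

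Id2, the Id protein required for innate lymphoid cells and some dendritic cells, gave its brightest signal on probe set 1435176_a_at. That probe set had 10935, 12445 and 2663 with LPS plus IL-10 and 11239, 14833 and 2818 with LPS at 10 min. At 20 min it had 12346, 13850 and 4905 with LPS plus IL-10 and 12379, 12526 and 4342 with LPS. It had 13227, 15646 and 5095 with LPS plus IL-10 and 13751, 15233 and 4419 with LPS at 30 min. Both 30 min arrays lay above both 10 min arrays in each experiment, but the largest step, 0.79 on the log2 scale, was in experiment 3, against 0.28 and 0.18 in experiments 1 and 2.

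The second-brightest Id2 probe set (1422537_a_at) had 8255, 8661 and 1233 with LPS plus IL-10 and 7281, 6658 and 1076 with LPS at 10 min. At 20 min the signals were 9780, 5707 and 1326 with LPS plus IL-10 and 9219, 7218 and 895 with LPS. At 30 min they were 11292, 9932 and 2496 with LPS plus IL-10 and 10197, 10057 and 1809 with LPS. The 30 min arrays were the 2 highest of their experiment in all 3 experiments.

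The dimmest Id2 probe set (1453596_at) behaved in the same way. It had 588, 444 and 190 with LPS plus IL-10 and 483, 279 and 205 with LPS at 10 min, and 576, 426 and 249 with LPS plus IL-10 and 592, 472 and 178 with LPS at 20 min. At 30 min it had 790, 785 and 368 with LPS plus IL-10 and 742, 799 and 325 with LPS. Its 30 min arrays were again the 2 highest in each experiment, and its change was 1.74-fold. The 3 Id2 probe sets thus shared a direction but not a size, and the part of the transcript each one reads was not looked up.

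Id3 (1416630_at), best known in lymphocyte development, had 5736, 5914 and 845 with LPS plus IL-10 and 5112, 5560 and 705 with LPS at 10 min. At 20 min it had 6026, 5271 and 906 with LPS plus IL-10 and 6193, 6039 and 648 with LPS. Its 30 min signals were 7086, 6386 and 1786 with LPS plus IL-10 and 7329, 7251 and 1559 with LPS. Both 30 min arrays lay above the 4 earlier ones in each of the 3 experiments. For Id3 and for the second-brightest and dimmest Id2 probe sets this was so in 3 of 3 experiments, an order found in 0.273 percent of all tested probe sets, and the brightest Id2 probe set met the looser order of 30 above 10 min in 3 of 3, as did 1.23 percent.

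**Figure D2:**
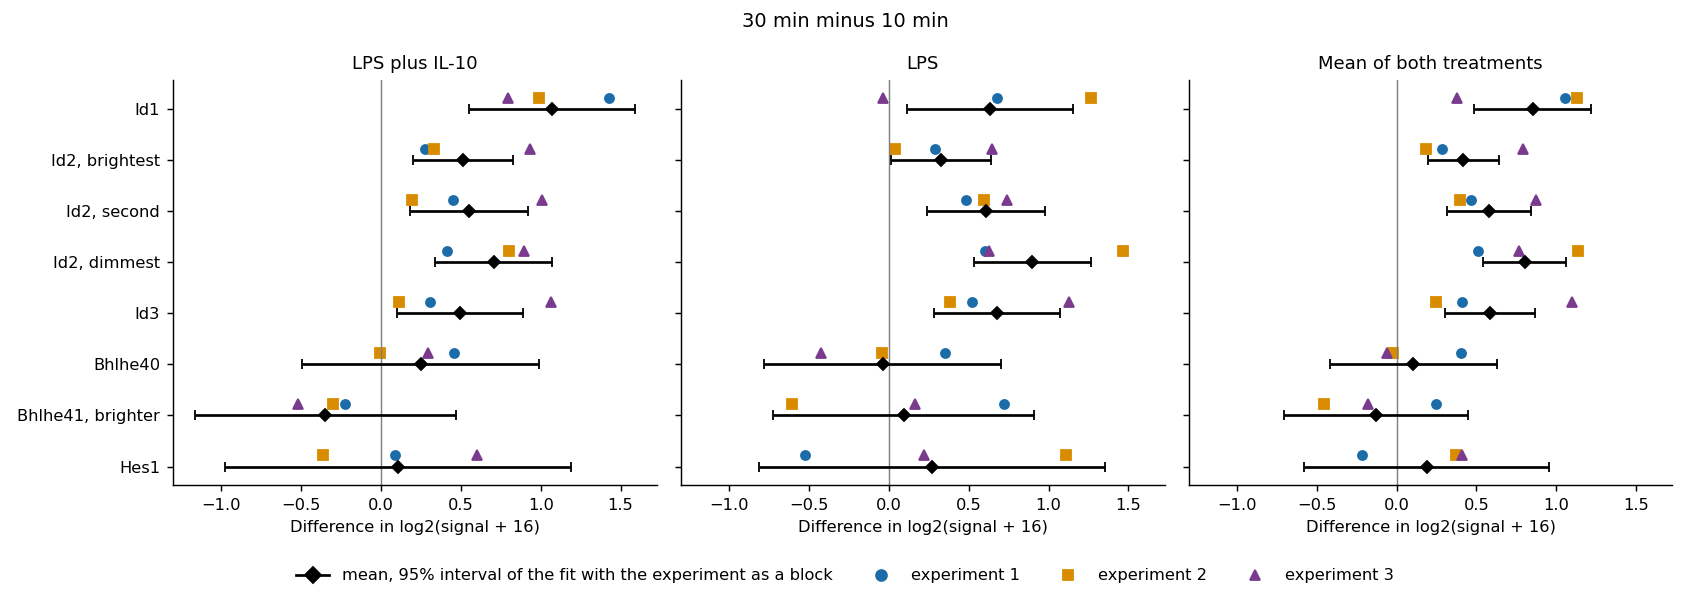
Difference in log2(signal + 16) between 30 and 10 min for the 8 tested probe sets (rows; Id2 from brightest to dimmest) with LPS plus IL-10, with LPS and as the mean of both. Diamonds and bars are means with the 95% interval of the fit with the experiment as a block, and coloured symbols are the 3 experiments; in the panel of the mean, the Id rows lie right of 0 in all 3 experiments and the Bhlhe40, Bhlhe41 and Hes1 intervals span 0.

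Within 1 treatment the same differences did not pass. With LPS plus IL-10, Id1 differed by 1.07 between 30 and 10 min (blocked adjusted p = 0.116) and the dimmest Id2 probe set by 0.70 (blocked adjusted p = 0.187), with each of the 3 experiments higher for both. With LPS, the dimmest Id2 probe set differed by 0.90 (blocked adjusted p = 0.0631, higher in 3 of 3 experiments), Id3 by 0.68 (0.614, 3 of 3) and Id1 by 0.63 (adjusted p = 1.00, 2 of 3). None of the 8 was called in either comparison, against 0.225 percent of all probe sets with LPS plus IL-10 and 0.111 percent with LPS in the blocked fit, and 0.0443 and 0.0184 percent without the block. At an unadjusted p under 0.05, all 5 Id probe sets were counted with the block in each treatment, and 0 without it. Of all probe sets, 5.8 percent were counted with LPS plus IL-10 and 3.71 percent with LPS with the block, and 2.31 and 1.35 percent without it. The difference between the treatments in this change is the change in IL-10 effect given below.

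Between 20 and 10 min, averaged over treatments, the Id probe sets differed by -0.01 to 0.29 and 0 of the 8 passed (0.059 percent of all probe sets did with the block, 0.0221 percent without). The brightest Id2 probe set had the 0.29 (blocked adjusted p = 0.533, unadjusted p = 0.0136), with 0.16, -0.04 and 0.75 in experiments 1, 2 and 3. Within a treatment 0 of the 8 passed at 20 against 10 min, where the blocked fit called 0.0332 percent of all probe sets with LPS plus IL-10 and 0.0148 percent with LPS (0.0111 and 0.0 percent without the block). The 2 LPS arrays with high lower quartiles enter the LPS values here.

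No effect of IL-10 on any of the 6 genes was detectable at this depth of replication. Of the 8 tested probe sets, 0 passed at 10, 20 or 30 min or averaged over the times in limma without or with the block. At an unadjusted p under 0.05 there were 0 at 10 min, 1 at 20 min (Bhlhe41, in both fits), 1 at 30 min (Id1, with the block) and 0 for the average. Of all probe sets, 3.58 percent at 10 min, 7.81 percent at 20 min, 2.81 percent at 30 min and 4.21 percent for the average had such a p with the block, and 1.14, 3.01, 1.16 and 1.56 percent without it. The blocked fit called 0.0 percent of all probe sets at 10 min, 0.0184 percent at 20 min, 0.0443 percent at 30 min and 0.0332 percent for the average, and the fit without it 0.0, 0.00738, 0.0111 and 0.0111 percent. How the effect of IL-10 differed at 20 and at 30 min from that at 10 min also gave 0 of 8 (0 at an unadjusted p under 0.05), against 0.00738 and 0.0184 percent of all with the block and 0.0 and 0.00369 percent without. Over the 9 pairs of arrays that share an experiment and a time, Bhlhe40 was higher with IL-10 in 7, Id1 and Bhlhe41 in 6, Id3 in 5 and Hes1 in 4. The brightest, second-brightest and dimmest Id2 probe sets were higher in 4, 7 and 5. Of all probe sets 8.76 percent were higher in at least 7 pairs, 23.9 percent in at least 6, 47.6 percent in at least 5 and 71.8 percent in at least 4. In 9 of 9 pairs 0.214 percent were higher.

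Averaged over the times, 8 of the 8 were higher with IL-10, against 46.8 percent of all probe sets, with a median of 0.14 against -0.01. At 10 min 7 of 8 were higher (50.2 percent of all), at 20 min 8 of 8 (47.7 percent) and at 30 min 5 of 8 (47.6 percent), and 3 of the 8 read the same gene, Id2. The intervals bound what could have been missed. For the brightest Id2 probe set the difference between LPS plus IL-10 and LPS at 30 min was 0.06 on the log2 scale (95% interval -0.25 to 0.37 with the block), and for Id3 it was -0.01 (-0.41 to 0.38). For Id1 it was 0.55 (0.03 to 1.07, blocked adjusted p = 1.00), higher with IL-10 in 3 of 3 experiments by 0.53, 0.10 and 1.01. That order held in 12.7 percent of all probe sets. Id1 differed by 0.11 at 10 min and 0.16 at 20 min, with experiments on both sides of 0, and its IL-10 effect at 30 min exceeded that at 10 min by 0.44 (blocked adjusted p = 1.00).

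**Figure D3:**
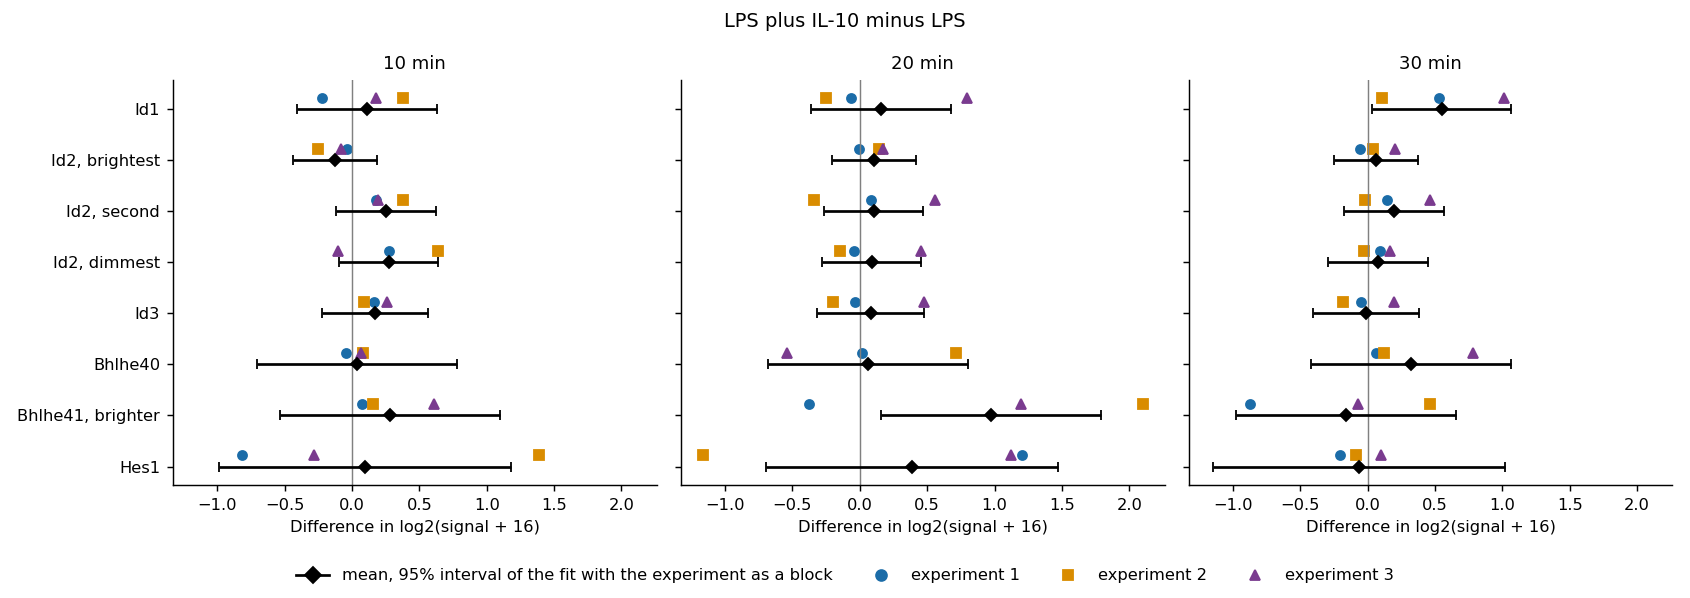
Difference in log2(signal + 16) between LPS plus IL-10 and LPS at 10, 20 and 30 min for the 8 tested probe sets. Diamonds and bars are means with the 95% interval of the fit with the experiment as a block, and coloured symbols are the 3 experiments; the intervals span 0 except those of Bhlhe41 at 20 min (0.16 to 1.79) and Id1 at 30 min (0.03 to 1.07), and neither passed over all probe sets.

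Bhlhe40 (1418025_at), the E-box repressor, did not pass in any of the 12 comparisons. It had 661, 351 and 112 with LPS plus IL-10 and 681, 330 and 106 with LPS at 10 min, in experiments 1, 2 and 3. At 20 min it had 799, 388 and 17.8 with LPS plus IL-10 and 790, 231 and 33.2 with LPS. At 30 min it had 912, 349 and 141 with LPS plus IL-10 and 874, 320 and 75.3 with LPS. The experiments kept the same order, 1 above 2 above 3, in all 6 groups, without overlap between any 2 of them.

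The Bhlhe40 difference between 30 and 10 min was 0.10 (95% interval -0.42 to 0.63 with the block), and that between LPS plus IL-10 and LPS at 30 min was 0.32 (-0.42 to 1.06). It was higher with IL-10 in 3 of 3 experiments at 30 min, by 0.06, 0.12 and 0.79, and the largest of these is from experiment 3, where the signals were 141 and 75.3. In experiment 3 both 20 min arrays were lower than all 4 others of that experiment.

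Bhlhe41 (1421099_at), the close relative of Bhlhe40, had dim signals. It had 86.0, 117 and 130 with LPS plus IL-10 and 81.0, 104 and 79.3 with LPS at 10 min, 68.5, 196 and 131 with LPS plus IL-10 and 93.8, 33.4 and 48.0 with LPS at 20 min, and 71.3, 92.1 and 85.6 with LPS plus IL-10 and 144, 62.4 and 90.9 with LPS at 30 min. At 20 min the difference between LPS plus IL-10 and LPS was 0.97 (SE 0.39, blocked adjusted p = 0.61), negative in experiment 1 (-0.38) and positive in experiments 2 and 3, where LPS gave 33.4 and 48.0. Those 2 LPS arrays are the ones with high lower quartiles, and their part in this difference was not tested. The other Bhlhe41 probe set (1457096_at) gave 3.1 to 63.8 and was below the median on all 18 arrays.

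Hes1 (1418102_at) was at or above the array's median on only 3 of the 18 arrays, with signals of 13.3 to 128.2. It had 66.0, 73.8 and 46.6 with LPS plus IL-10 and 128, 18.3 and 60.0 with LPS at 10 min. At 20 min it had 128, 38.3 and 47.9 with LPS plus IL-10 and 46.4, 106 and 13.3 with LPS, and at 30 min 71.1, 53.7 and 78.9 with LPS plus IL-10 and 84.3, 58.0 and 72.7 with LPS. The IL-10 difference changed sign between experiments at each time, for example -0.81, 1.39 and -0.28 at 10 min. The 95% interval of the difference between 30 and 10 min, -0.58 to 0.95 with the block, leaves room for a change of the size seen for the Id genes. Without detection calls, its dim signal cannot be told from background.

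**Figure D4:**
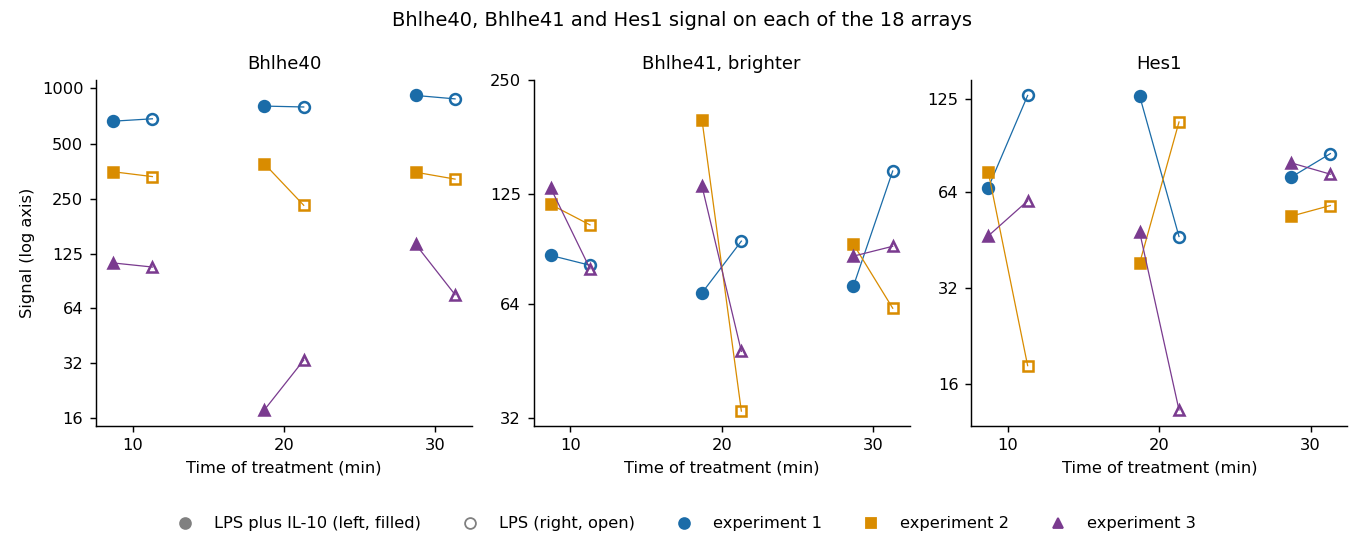
Signal (log axis) of Bhlhe40, the brighter Bhlhe41 probe set and Hes1 on each of the 18 arrays, against time of treatment in min. Filled symbols on the left are LPS plus IL-10, open symbols on the right are LPS, colour and shape give the experiment, and lines join the 2 arrays of an experiment at a time; Bhlhe40 separates by experiment, whereas the experiments mix for Bhlhe41 and Hes1.

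The difference of experiment 3 from experiments 1 and 2 was the largest feature of Id1, Id2, Id3 and Bhlhe40. Over its 6 arrays, experiment 3 gave Id3 signals of 648 to 1786 (median 875), against 5112 to 7329 in experiment 1 and 5271 to 7251 in experiment 2. Experiment 3 minus the mean of experiments 1 and 2 was -2.60 for Id3, -2.61, -1.74 and -1.14 for the second-brightest, brightest and dimmest Id2 probe sets, -1.53 for Id1 and -2.62 for Bhlhe40 on the log2(signal + 16) scale. It was -0.34 for Hes1 and 0.01 for Bhlhe41. Experiments 1 and 2 were close for Id3 (2 minus 1, -0.04) and for Id1 (0.06), but not for Bhlhe40 (-1.23).

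Over all 27110 tested probe sets the same difference had a median of 0.04, with a 1st percentile of -1.29 and a 99th of 1.19. Counted from the lowest, Bhlhe40, the second-brightest Id2 probe set and Id3 were the 11th, 12th and 13th. All 6 arrays of experiment 3 lay below the 12 others for these 3 and for the brightest Id2 probe set, as they did for 3.73 percent of tested probe sets. The 6 arrays of an experiment come from 1 run of the whole procedure, so this is given as a description with no test, and in bulk RNA fewer cells of a type and less RNA per cell cannot be told apart.

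**Figure D5:**
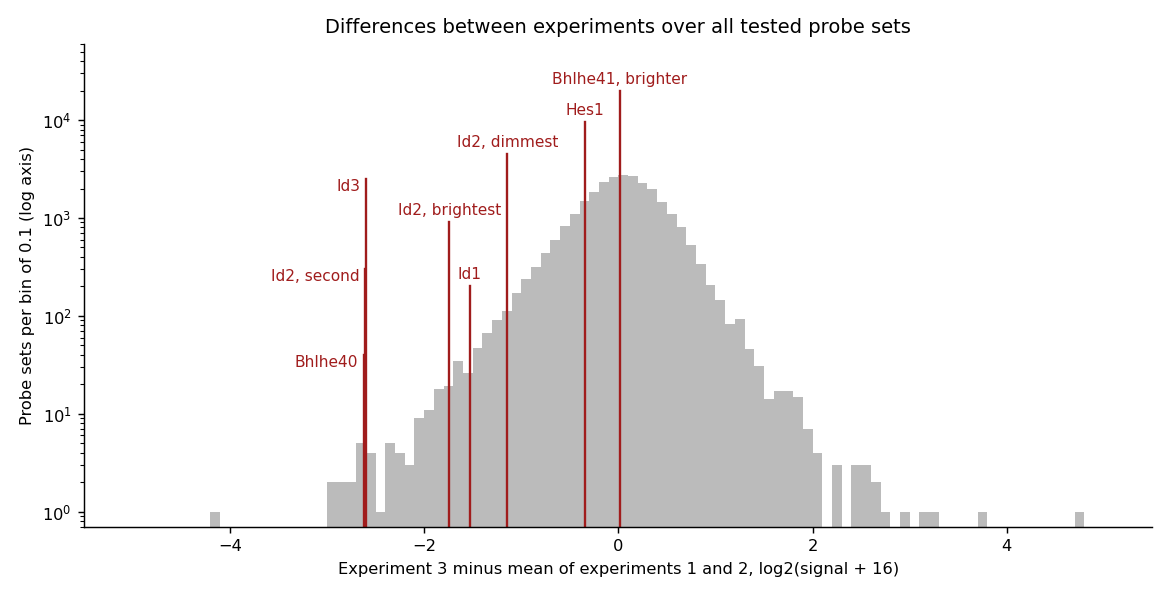
Distribution over the 27110 tested probe sets of experiment 3 minus the mean of experiments 1 and 2 in log2(signal + 16) (horizontal axis; bins of 0.1, counts on a log axis), with vertical lines at the 8 probe sets of the 6 genes; line heights only separate the names. Bhlhe40, the second-brightest Id2 probe set and Id3 stand in the far left tail, near -2.6, and Hes1 and Bhlhe41 near the centre.

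Marker lists of other cells were set beside this. The macrophage markers summed to 128699 to 201486 in experiment 3, against 113426 to 146259 in experiment 1 and 134354 to 167327 in experiment 2. Such sums follow the brightest markers and can hide differences in single ones. In experiments 1, 2 and 3 the medians were 23229, 23971 and 24170 for Csf1r, but 10599, 19460 and 22932 for Adgre1. For Fcgr1 they were 5410, 11593 and 4251. The 7 granulocyte markers measured of 8 summed to 5640 to 9085 in experiment 3, against 7038 to 8584 in experiment 1 and 11855 to 14020 in experiment 2, and the 6 stromal markers to 2093 to 2921, against 1715 to 2391 and 2463 to 3868. For B lymphocytes (4 of 5 markers) the sums were 284 to 475 in experiment 3, against 222 to 303 and 204 to 549. For T lymphocytes (5 of 6) they were 238 to 413, against 65.0 to 180 and 238 to 442. The 5 dendritic cell markers summed to 185 to 527, against 188 to 294 and 143 to 331, and the 3 of 5 erythroid markers measured to 91.7 to 226, against 70.7 to 317 and 82.0 to 295. No marker was listed at 0, and the part of other cells in the difference between experiments was not tested.

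The listed partners, relatives and upstream genes of the 6, the clock genes and the other bHLH factor genes did not pass in any comparison. This held in either direction, with or without the block. No comparison called more than 0.435 percent of all tested probe sets, so 0 calls in lists this short cannot set them apart from the array. Between 30 and 10 min, averaged over treatments, 43.3 percent of all tested probe sets were higher, for comparison with the counts of higher genes below. None of the 3 tested E protein genes passed between 30 and 10 min (median 0.06, averaged over treatments, against -0.03 over 12527 genes), with Tcf3 at -0.13, Tcf4 at 0.11 and Tcf12 at 0.06. Of the 5 tested TLE co-repressor genes, which serve Hes factors, 0 of 5 were higher (median -0.13), and Tle4 differed by -0.13, Tle6 by -0.17 and Tle2 by -0.22. The 4 tested relatives among 10 listed Id, Hes and Hey genes had a median of -0.25, and Heyl (-0.52) and Hey1 (-0.39) were dim, with medians of 85.7 and 77.5.

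Upstream, 21 of 24 listed Notch pathway genes were tested and 7 were higher at 30 min (median -0.03). The largest differences were in the ligand gene Dll3 (-0.52), the receptor gene Notch3 (0.44) and the ligand gene Jag2 (0.41). Of 18 BMP and SMAD genes 14 were tested and 8 were higher (median 0.01), and the differences of largest size were in the receptor gene Bmpr1b (0.31), the ligand gene Bmp7 (-0.25) and the receptor gene Acvr1 (0.22). Of 17 clock genes, listed as genes that Bhlhe40 and Bhlhe41 act on, 15 were tested and 6 were higher (median -0.02). Nfil3 differed by 0.51 (blocked adjusted p = 0.408), Cry1 by 0.33 and Clock by 0.24. All 23 other bHLH and bHLH-zipper factor genes were tested and 11 were higher (median -0.03), with Myc at 0.39 (blocked adjusted p = 0.256), Arnt at -0.24 and Tal1 at -0.23. By contrast, a list of 8 early response genes, chosen with earlier results of these data known and so no independent evidence, had a median of 1.74, and 8 of 8 rose with the block (5 of 8 without), from Fos (0.74) to Socs3 (3.09).

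The patterns most like each gene were sought over the 18 arrays after each experiment's mean was taken off, among 12526 other genes. For Id2, by its brightest probe set, these were Fosl2, an AP-1 factor gene (r = 0.87, Pearson), 1810013L24Rik (0.81) and Dusp1, a MAP kinase phosphatase gene (0.75). For Id3 they were Zfand2a (0.86), the kinase gene Stk17b (0.86) and the AP-1 factor gene Junb (0.84), and for Id1 5430427O19Rik (0.86), Ajap1 (0.85) and Gpr84, a receptor for medium-chain fatty acids (0.83). Dusp1 (1.72, blocked adjusted p = 1.08e-08), Junb (0.86, 0.00493) and Gpr84 (0.68, 0.0209) rose between 10 and 30 min, averaged over treatments. The other 6 of these 9 genes did not pass, with blocked adjusted p from 0.342 (Stk17b) to 0.726 (Zfand2a).

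The genes nearest to Bhlhe40 were 1700123O20Rik (0.92), Snx20 (0.90) and Plekhj1 (0.89), to Bhlhe41 Rgs10 (0.86), Pdcd6ip (0.83) and Fbxl6 (0.81), and to Hes1 Ocrl (0.85), Mettl9 (0.83) and Fam98a (0.80). None of these 9 passed in that comparison. Among the members themselves, Id1 and Id3 had r = 0.61. The Id2 probe sets differed in this, so that r with Id3 was 0.55, 0.92 and 0.74 for the brightest, second-brightest and dimmest, r with Id1 was 0.28, 0.69 and 0.79, and r with Bhlhe40 was -0.28, 0.41 and 0.21. These correlations are descriptions, and the arrays they run over share their experiment and the array scaling.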

How the data were processed

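Gene expression was measured on 18 single-colour arrays. The deposited intensities are linear signals, 1 column per array, made by the authors; the submitters' processing notes name GCOS 1.4, and no algorithm or setting is known here. The deposited scaling hides any change in total RNA per cell, and a dim signal cannot be told from background. Of 45101 probe sets 64 were controls and were left out of the tests; 34958 carried 1 symbol, 932 several and 9211 none, and only the first were named.

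Signals were turned into log2(signal + 16), so folds of dim probe sets are understated. The 27110 probe sets at or above their array's median on at least 3 arrays were fitted with limma 3.58.1 in R 4.3.3 (lmFit, eBayes with an intensity trend), 1 coefficient per group on all 18 arrays. This was done without a block (12 residual degrees of freedom) and with the experiment as a block (10). Tests were two-sided, Benjamini-Hochberg adjusted over all tested probe sets within each of 12 comparisons, at 0.05. The labels make a replicate number 1 complete experiment; deviations from group means correlated at 0.20 to 0.64 in the 45 same-number pairs, and at -0.47 to 0.07 in the 90 pairs of different numbers, so the numbers pair the samples and blocked values are given. No 2 arrays held the same values. The script was tested on simulated data.

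Every probe set of the 6 genes was named. For each gene with a tested probe set, the 3 genes most alike were named, and of each fixed list up to 3 genes with the largest differences at 30 against 10 min, using each gene's brightest tested probe set. The members and lists were chosen with earlier results of these data known. Alternatives are given in the closing section.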

Additional observations from a re-analysis of the deposited data

How the results depend on the processing

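The number of called probe sets of the 6 genes stayed at 0 in all 12 comparisons under the 13 alternatives without a block: quantile normalisation, pseudocounts of 1 and 64, no filter, a filter at the 75th percentile, no intensity trend, only the groups compared, each experiment left out, and the 20 min LPS arrays from experiments 2 and 3 left out singly or together. Calls therefore rest on the replicate block, which is the pairing by experiment. For 30 against 10 min, averaged over treatments, the block gave 3 called. With the block, quantile normalisation gave 1 (Id1 and the second-brightest Id2 probe set were lost), a pseudocount of 1 gave 2, a pseudocount of 64 gave 3, no filter gave 2, the 75th percentile filter gave 3 and leaving out both LPS arrays at 20 min gave 4, the fourth being Id3 (adjusted p = 0.0254); leaving out 1 experiment gave 0 to 2. The combinations of the block with scaling, pseudocount or filter were chosen after seeing the data. The dimmest Id2 probe set passed in all of these except without experiment 1 or 2. Its adjusted p with the block ranged from 0.00194 to 0.257, and that of Id1 from 0.00073 to 0.74. Within LPS, 1 probe set (the dimmest of Id2) was called with the block at a pseudocount of 64, of 34 over the whole array. Within LPS plus IL-10, 0 to 1 were called with the block when an experiment was left out. The 1 was Id1 without experiment 3, of 74 over the whole array. Apart from the fit without both LPS arrays at 20 min, the block changed no other call. No called value changed sign; of 2160 values under alternatives 178 changed sign, and none of these was called. Hes1 and Bhlhe41 are limited by signals near the array median.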

Other observations

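The 10 probe sets with lower values than Bhlhe40 in experiment 3 against experiments 1 and 2 belonged to Tent5c (-4.16 and -2.64), Nanos1 (-2.96), Ccsap (-2.90), Hmga2 (-2.89), Il7r (-2.87 and -2.78), Etv5 (-2.75), Slc6a6 (-2.68) and Ctnnd2 (-2.67), and the next after Id3 were Tnf (-2.58), the inflammatory cytokine gene, and the chemokine genes Ccl7 (-2.57) and Ccl12 (-2.52). These genes were chosen after their values were seen. In all, 634 tested probe sets were lower by more than 1 on the log2 scale in experiment 3 and 490 were higher by more than 1.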
